A study of Mus musculus with 30 samples.

Results

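The clock output transcription factors are 8 genes, Dbp, Tef, Hlf, Nfil3, Ciart, Bhlhe40, Bhlhe41 and Rora, and were followed through every probe set that carries 1 of these symbols in the platform annotation. These were 21 of 45037 probe sets without controls: 2 for Dbp, 3 for Tef, 2 for Hlf, 1 each for Nfil3, Ciart and Bhlhe40, 2 for Bhlhe41 and 9 for Rora. Expression had been measured on 30 Affymetrix arrays, with the liver, the kidney and the brain taken from each of 10 male mice of genotype Avy/a, killed on day 22. Every mouse carried the viable yellow allele Avy, in which a retrotransposon upstream of the agouti gene is active to a different extent in different animals, opposite the nonagouti allele a, so that no group lacked Avy. The colony was kept by mating siblings with Avy held heterozygous, and Avy had arisen in C3H/HeJ. Coats fell into 5 classes, yellow, then slightly mottled, then mottled, then heavily mottled, then pseudoagouti, each with a mouse numbered 2 and a mouse numbered 1. The 3 arrays that share a class and a number were read as coming from 1 mouse. The labels say neither what the number marks nor at which hour tissues were taken.

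The circadian clock is a feedback loop that runs in nearly every cell: the activators CLOCK and ARNTL bind E-box sequences and switch on their own repressors, PER and CRY, as well as a layer of transcription factors that pass the rhythm on. DBP, TEF and HLF, the PAR bZIP activators, bind D-box sequences, and NFIL3 is a repressor that binds the same sites, so these factors oppose each other. CIART (CHRONO) and the basic helix-loop-helix proteins BHLHE40 and BHLHE41 (DEC1 and DEC2) repress at E-boxes, and the nuclear receptor RORA activates genes such as Arntl and Nfil3 through ROR elements. In liver and kidney the PAR bZIP factors are known for control of detoxification and of metabolism.

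Some of the promoters that hold such sequences are shown, 1 each for Ciart, Tef and Nfil3, because the results below turn on members that deviated together or in opposite directions. RefSeq promoters of build GRCm38.p6, each 250 bases before to 50 after a start site, were at hand for 7 of the 8 genes, with Bhlhe40 as the exception. The letters CACGTG (E-box, the same on both strands), TTATGTAA and TTACGTAA (D-box) and TAGGTCA (ROR element core) were searched on both strands, and no matches overlapped. CACGTG stood in 7.15% of 32851 promoters and 3 or more copies in 0.0883%. Ciart had 3 copies, which begin 116, 58 and 44 bases before the start. Tef had 1 copy at each of its starts and Bhlhe41 1 copy, beginning 153 bases before the start. TAGGTCA stood in 2.61% of promoters, and Nfil3 held it on the opposite strand beginning 12 bases before the start. Either D-box form stood in 1.06% of promoters and in none of these windows, and the windows of Dbp, Hlf and Rora held none of the 4 sequences. A match is a description of letters, and its use in these tissues was not measured. In the lines below the capitals mark the E-box in Ciart (chr3:95882179-95882478, minus strand) and in the Tef start at chr15:81811164-81811463 (plus strand), and the reversed ROR element core in Nfil3 (chr13:52980990-52981289, minus strand).
Ciart: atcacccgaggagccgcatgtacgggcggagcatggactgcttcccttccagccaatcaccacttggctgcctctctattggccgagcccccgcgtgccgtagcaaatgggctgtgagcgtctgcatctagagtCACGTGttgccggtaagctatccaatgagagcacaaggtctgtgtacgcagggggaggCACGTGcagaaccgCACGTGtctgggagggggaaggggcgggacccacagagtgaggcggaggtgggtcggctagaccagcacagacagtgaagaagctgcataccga
Tef: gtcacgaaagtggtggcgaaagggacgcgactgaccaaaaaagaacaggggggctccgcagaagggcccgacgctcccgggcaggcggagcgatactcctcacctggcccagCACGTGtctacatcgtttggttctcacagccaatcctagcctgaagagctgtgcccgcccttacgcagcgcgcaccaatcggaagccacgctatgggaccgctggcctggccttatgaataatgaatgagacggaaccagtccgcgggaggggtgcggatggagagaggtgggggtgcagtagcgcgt
Nfil3: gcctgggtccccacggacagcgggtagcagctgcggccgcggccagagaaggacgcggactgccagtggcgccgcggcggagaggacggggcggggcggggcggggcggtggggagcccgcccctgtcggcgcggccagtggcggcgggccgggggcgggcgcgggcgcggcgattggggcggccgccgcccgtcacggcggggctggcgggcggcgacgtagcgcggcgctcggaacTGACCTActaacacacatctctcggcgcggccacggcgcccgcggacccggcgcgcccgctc

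Signals are the authors' linear intensities, which had been scaled to a trimmed mean of 500 on each array, and were analysed as log2(signal + 16). A probe set was tested if its highest tissue mean reached the median over all probe sets, a signal of 242. That left 22519 probe sets, among them 16 of the 21 members. The other 5, 2 of Bhlhe41 and 3 of Rora, lay below this level. The liver, kidney and brain marker lists were highest in their own tissue for 4 of 4, 5 of 5 and 5 of 5 genes on the array. Brain samples held unequal shares of brain regions: the summed cerebellar signal ranged over 5760 to 48926, and Gabra6, a receptor subunit of cerebellar granule cells, had 8967 in pseudoagouti 1 and at most 110.9 in the other brains. Kidney samples were uneven too. In them the summed signal of liver markers ranged over 209 to 12368, and that of fat markers over 7628 to 23999. The part of this in the kidney results was not tested. The number ran with array measures. The highest signal of an array was 19007 to 25922 in kidneys of mice numbered 2 and 22991 to 45410 in those numbered 1. In liver the 3 prime over 5 prime Gapdh ratio was 0.748 to 0.888 for number 2 and 0.707 to 0.754 for number 1.

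Dbp, the PAR bZIP activator with the widest daily swing in textbook liver data, had the same 4 mice lowest in all 3 tissues at 1 of its probe sets, 1418174_at. In livers of mice numbered 2, from yellow to pseudoagouti, 1418174_at had signals of 2177, 339.9, 124.2, 1155 and 3387. In livers of mice numbered 1 it had 2030, 2092, 103.2, 314.9 and 3102, in the same order of coats. In liver 4 mice, slightly mottled 2, mottled 2, mottled 1 and heavily mottled 1, lay at or below 339.9, and the other 6 at or above 1155. The same 4 mice were the 4 lowest in kidney, with 615.5, 357, 599.9 and 1070 against 1629 to 3430 in the others. They were again the 4 lowest in brain, with 893.1, 885.1, 933.2 and 1069 against 1417 to 2676. For 15 of 22519 probe sets tested (0.0666%), the 4 lowest mice of the probe set, whichever these were, were the same in all tissues. This count was made after these values were seen, and it does not ask for the 4 mice of Dbp. Among the 15 was Nr1d2, which encodes REV-ERB beta, a repressor of the clock. The rest besides Dbp were Sec22b, Hspa5, Tmem9b, Nosip, Srsf5, Tmem267, Ckap4, Ipo5, Sema6c, Bmt2, Slc31a1, Zeb2 and Ninl. None of these is among the core clock genes tested below. Averaged over tissues, mice spanned 3.01 on the log2 scale (8.09-fold) for Dbp, from mottled 2 at -1.75 to pseudoagouti 1 at 1.27. Differences between mice held 79.0% of the variance within tissues, where the median probe set tested had 42.7%. In bulk tissue, fewer cells of a type and less RNA per cell cannot be told apart.

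**Figure D1:**
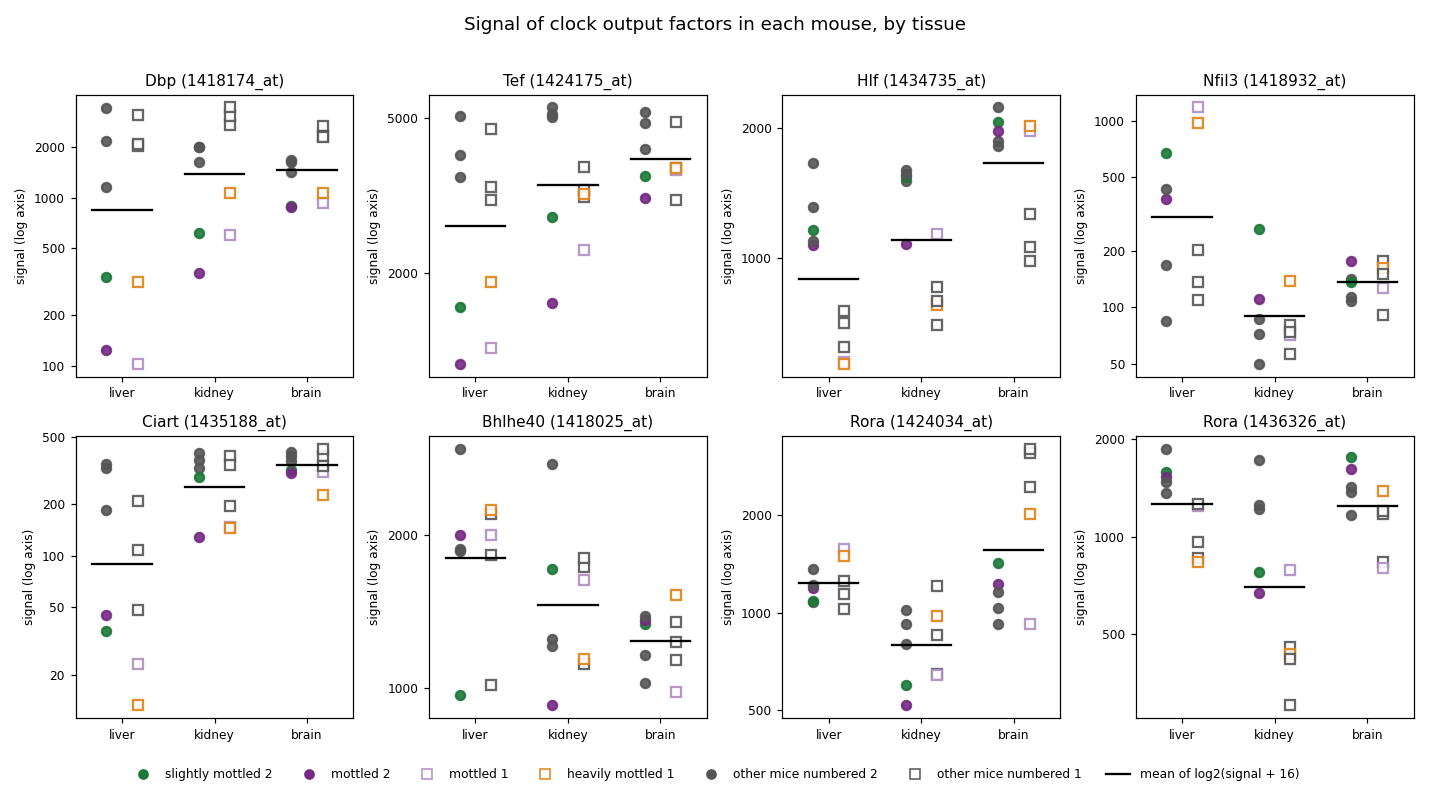
Signal (log axis) of 8 member probe sets in each mouse, by tissue, with mice numbered 2 as filled circles left of mice numbered 1 as open squares, and the line at the back-transformed mean of log2(signal + 16). The 4 coloured mice were the 4 lowest for Dbp in all 3 tissues, while Hlf and Rora 1436326_at separate by number in liver.

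A joint test over the 3 tissues asked which probe sets differ between mice, with tissue as a covariate (limma's moderated F-test on 9 mouse coefficients). Of the 16 members tested, 5 passed (31.25%), where 6.8% of all 22519 did: Dbp 1418174_at, Tef 1424175_at, both Hlf probe sets and Ciart. Dbp 1418174_at had a limma adjusted p of 0.00208, and 9 of 10 mice lay on 1 side of the mean in every tissue. It passed with each mouse left out, at adjusted p up to 0.00738. It also passed with the number removed within each tissue, at 0.0171, and there it was the 1 member left of 94 probe sets (0.417%). The count of members was 8 without mottled 1, and 3 without mottled 2 or without pseudoagouti 2. Over all probe sets the count also moved, from 665 to 2064 with a mouse left out (1531 in all mice). With liver and brain alone the count of members was 0, where 1 probe set of 22519 passed.

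The other Dbp probe set, 1438211_s_at, whose suffix marks sequence shared with another transcript, had about the same pattern in liver and a flatter one in brain. It had 435.4 to 5215 in livers of number 2 and 200.6 to 6323 in livers numbered 1, with the same 4 mice lowest. In brain it had 2159 to 3868 for number 2 and 2445 to 3906 for number 1. There yellow 2 was lowest, and heavily mottled 1, at 3379, was among the 4 highest. The deviations of the 2 probe sets from their tissue means had r = 0.917 and rho = 0.902 over 30 arrays, with 0.961 in liver, 0.888 in kidney and 0.595 in brain. It missed the threshold of the joint test (limma adjusted p = 0.0580).

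Tef, the second PAR bZIP activator, followed Dbp in liver at its strongest probe set, 1424175_at. Its signals in liver were 1163 to 5068 for number 2 and 1280 to 4701 for number 1, and the lowest 4 were again mottled 2, mottled 1, slightly mottled 2 and heavily mottled 1. In kidney heavily mottled 1 was not among the 4 lowest, and in brain pseudoagouti 1 was the lowest at 3078. Tef 1424175_at passed the joint test (limma adjusted p = 0.0121), with a span of 1.40 log2 between mice. It missed it without mottled 2 (0.0567) and with the number removed within tissue (0.0519). Tef 1450184_s_at spanned 2.11 and had an adjusted p of 0.0551. In liver it had 15.8 to 142 for number 2 and 21.7 to 449.4 for number 1, and mottled 1 was the 1 mouse numbered 1 among its 4 lowest. Tef 1438033_at had r = 0.323 with 1424175_at over 30 arrays, spanned 0.73 and had an adjusted p of 0.613. The probe sets of Tef therefore gave different orders of the same mice.

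Hlf, the third of these activators, separated by number more than by the 4 mice. In liver 1434735_at had 1071 to 1652 in mice numbered 2 and 569.8 to 756 in mice numbered 1, and these groups did not overlap. In kidney it had 1078 to 1596 for number 2 and 700.4 to 1135 for number 1, where mottled 1 reached above mottled 2. In brain it had 1818 to 2226 for number 2 and 982.4 to 2017 for number 1. Its adjusted p in the joint test was 0.00920, and 0.700 once the number was removed within tissues. Hlf 1434736_at, with r = 0.617 to the first probe set, combined both patterns: pseudoagouti 2 was highest in every tissue (1453, 2161 and 2827 in liver, kidney and brain), and mottled 1 lowest in liver and brain (422.5 and 1797). Its adjusted p was 0.0136, 0.0505 without pseudoagouti 2 and 0.142 with the number removed.

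Nfil3, the repressor at D-boxes, ran against Dbp in liver and kidney, and less so in brain. In liver it had 84.6 to 675.6 in mice numbered 2 and 109 to 1179 in mice numbered 1, with mottled 1 (1179), heavily mottled 1 (969.2) and slightly mottled 2 (675.6) at the top and pseudoagouti 2 at the bottom. Mottled 2, at 380.3, lay below heavily mottled 2, at 428.8. In kidney slightly mottled 2 had 262.4 and the other 9 mice 49.9 to 137.8, and in brain all lay between 91.4 and 178.2. Mottled 1, low for Dbp, was among the 4 lowest for Nfil3 in both kidney and brain. Deviations of Nfil3 and Dbp 1438211_s_at had r = -0.797 and rho = -0.725 over 30 arrays, with -0.827 in liver, -0.754 in kidney and -0.263 in brain. With number means removed within tissue r was -0.795, and over the 18 arrays of the 6 mice outside the low 4 it was -0.498. The joint test did not call Nfil3 (limma adjusted p = 0.221), and no left-out mouse changed that (0.121 to 0.323).

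Ciart, a repressor of CLOCK and ARNTL activity, was lowest in liver in the same 4 mice that were low for Dbp. These had 36.1 (slightly mottled 2), 45.1 (mottled 2), 23.1 (mottled 1) and 13.3 (heavily mottled 1), and the highest was pseudoagouti 2 at 346.1. Yellow 1, high for Dbp, was close to them at 48.3. In kidney Ciart had 128.1 to 398 for number 2 and 145.6 to 385.1 for number 1, and in brain 307.1 to 406.1 for number 2 and 227.3 to 423 for number 1, with the same 4 mice lowest in brain. The joint test called it (limma adjusted p = 0.0441), but in 2 of the 10 fits that omit a mouse (0.0436 to 0.0847). With an offset of 1 in place of 16 it missed the threshold (0.0657). Its lowest liver signals lie near that offset.

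The repressors Bhlhe40 and Bhlhe41 showed no shared pattern. Bhlhe40 was well measured, at 1893 ± 576 in liver, 1526 ± 530 in kidney and 1249 ± 172 in brain (SD, n = 10 each). The mice ranked differently in each tissue: slightly mottled 2 was lowest in liver (967) and mottled 1 lowest in brain (983.7). Its span between mice was 0.56 and its limma adjusted p 0.892. The 2 probe sets of Bhlhe41 were dim. Of them 1421099_at averaged 120 ± 40.4 in liver, 76.0 ± 32.7 in kidney and 74.5 ± 23.8 in brain (SD, n = 10 each). Bhlhe41 1457096_at lay between 2.8 and 16.1 in every liver and kidney. In brain it had 6.6 to 22.1 in mice numbered 2 and 32.4 to 70.8 in mice numbered 1, without overlap, which held for 5.50% of the probe sets tested in brain. In the fit without a filter this difference of -1.39 ± 0.25 log2 (SE, n = 5 each) passed in brain (limma adjusted p = 0.0423, 0.477% of 45037 probe sets called). These signals lie below the level tested in the main fits.

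**Figure D2:**
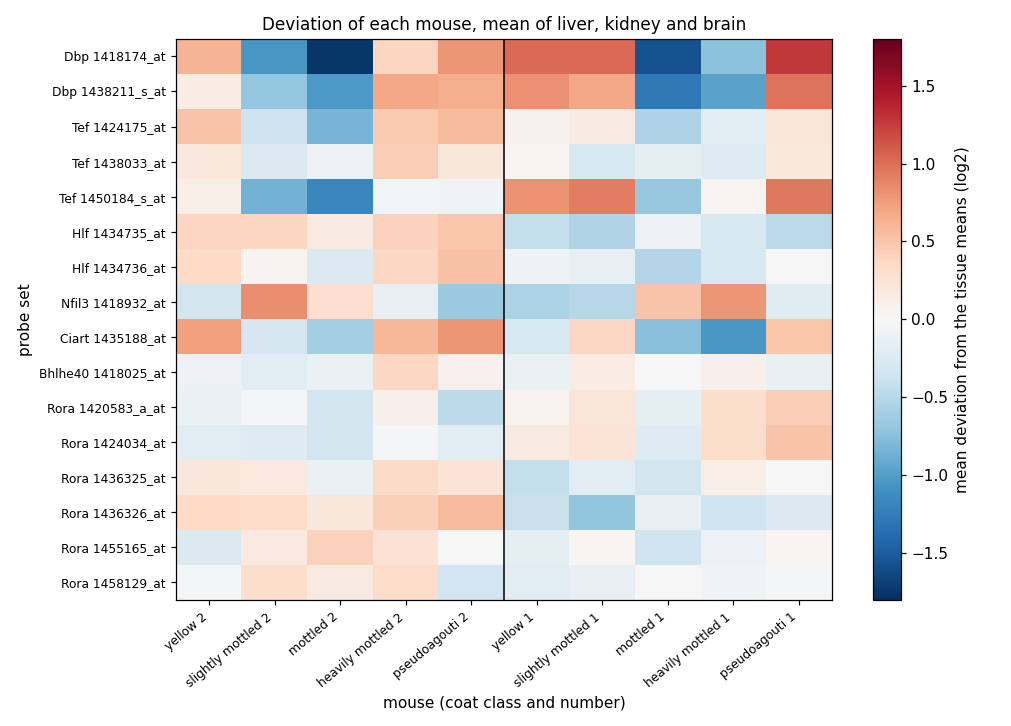
Mean deviation of each mouse from the 3 tissue means (colour, log2) for the 16 member probe sets tested, with mice numbered 2 left of the line and mice numbered 1 right of it. Dbp, Tef 1424175_at and Ciart are low in slightly mottled 2, mottled 2, mottled 1 and heavily mottled 1, Nfil3 is high in them, and Hlf 1434735_at is above 0 in all mice numbered 2 and below 0 in all numbered 1.

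The next comparison asked in which tissue mice spread most. For Dbp 1418174_at the SD over 10 mice was 1.86 in liver, 1.10 in kidney and 0.60 in brain on the log2 scale, a range of 28.6-fold, 9.24-fold and 2.99-fold in signal + 16. Dbp 1438211_s_at had SDs of 1.85, 0.78 and 0.29 in liver, kidney and brain. Ciart had 1.32, 0.60 and 0.25, Nfil3 1.27, 0.61 and 0.28, and Tef 1424175_at 0.78, 0.53 and 0.27, in the same order of tissues. The median SD of all probe sets tested was 0.32, 0.31 and 0.30 in these tissues, so that the spread of Dbp 1438211_s_at, Tef 1424175_at, Nfil3 and Ciart in brain was below that of the median probe set. SDs ran in the order liver, kidney, brain for 9 of 16 members (56.25%) and for 22.4% of all tested. Both Hlf probe sets and Bhlhe40 were among the 9, and no Rora probe set was. Within numbers the order was the same for Dbp 1418174_at: 1.90, 1.11 and 0.45 in mice numbered 2, and 2.04, 1.09 and 0.70 in mice numbered 1.

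**Figure D3:**
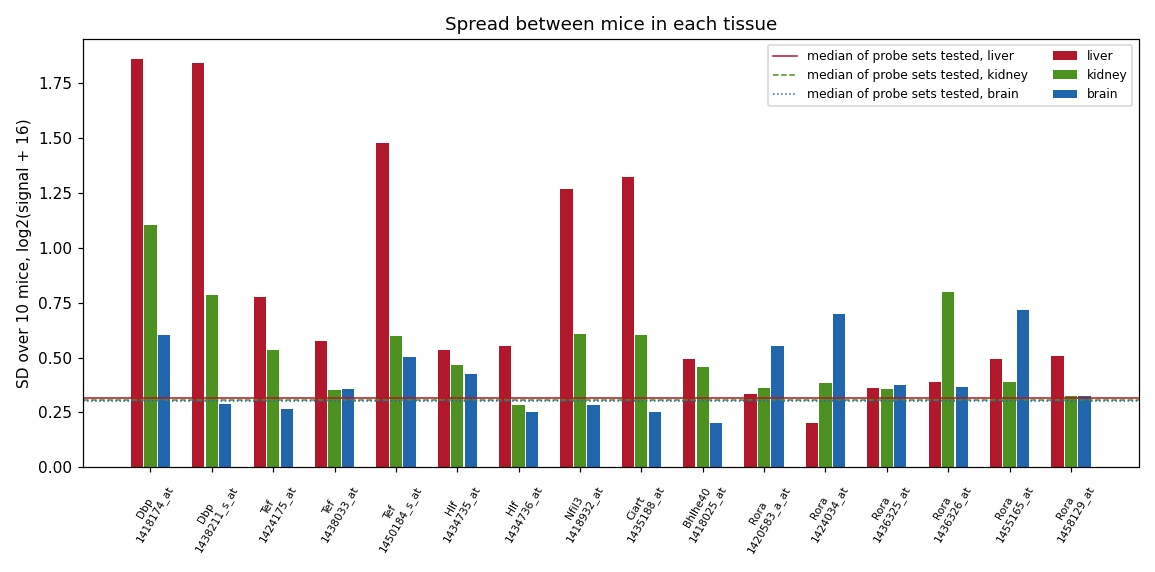
SD over 10 mice of log2(signal + 16) in liver, kidney and brain (bars) for the 16 member probe sets tested, with the median SD of all 22519 probe sets tested as lines at 0.32, 0.31 and 0.30. The Dbp, Nfil3 and Ciart bars fall in steps over liver, kidney and brain, and Rora 1424034_at runs the other way.

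Absolute deviations from the tissue mean were compared between tissues with mouse as a block (limma). Liver minus brain was called for 7 of 16 members, where 6.13% of all probe sets were. In 6 of them, both Dbp, Nfil3, Ciart and the Tef probe sets 1424175_at and 1450184_s_at, mice spread more in liver, and in Rora 1424034_at more in brain (-0.44 ± 0.11 log2, limma adjusted p = 0.0108), a call lost without slightly mottled 1 (0.0572). Among all tested, 4.03% spread more in liver and 2.1% more in brain. The mean absolute deviation of Ciart was larger in liver by 0.96 ± 0.18 log2 (SE, 10 mice, limma adjusted p = 0.000779), and it passed in all 10 fits that omit a mouse. That of Dbp 1438211_s_at was larger by 1.41 ± 0.23 (limma adjusted p = 0.000131), and that of Nfil3 by 0.86 ± 0.19 (0.00276), both also with any mouse left out. Tef 1424175_at (0.45 ± 0.13, 0.0236) missed the threshold without mottled 1, heavily mottled 1, slightly mottled 2 or mottled 2, up to 0.0912. With deviations from the tissue median, a stricter form of this test, 2 members passed, Ciart among them (0.0250), and Dbp had 0.0627 and 0.0664.

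Liver minus kidney was called for 4 members (4.5% of all were called, 2.75% with more spread in liver): Dbp 1438211_s_at (0.95 ± 0.23 log2), Tef 1450184_s_at (0.82 ± 0.21), Nfil3 (0.64 ± 0.19) and Ciart (0.62 ± 0.18). All 4 spread more in liver. The count was 2 in 6 of the 10 fits that omit a mouse (yellow 1, mottled 1, heavily mottled 1, pseudoagouti 1, yellow 2 or pseudoagouti 2), and 0 with deviations from the median. Kidney minus brain was called for 0 members (limma), of which 5 had an unadjusted p under 0.05 (2.04% of all were called).

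Mice numbered 2 were then compared with mice numbered 1 in each tissue, because the number is the 1 other label that splits the mice and because it ran with array measures. In liver 4 members were higher in number 2 (4.72% of all were called higher and 9.85% called in all): Hlf 1434735_at and the Rora probe sets 1436325_at, 1436326_at and 1455165_at. Hlf 1434735_at was higher by 0.93 ± 0.14 log2 (SE, n = 5 each, limma adjusted p = 0.00301). Rora 1436325_at had 1208 to 1607 in livers numbered 2 and 771.6 to 1019 in livers numbered 1, without overlap, a difference of 0.62 ± 0.12 (limma adjusted p = 0.00858). Rora 1436326_at had 1368 to 1869 in number 2 and 836.6 to 1259 in number 1, also without overlap. Groups did not overlap for 9.89% of all probe sets tested in liver. These 3 passed with any mouse left out, and Rora 1436326_at missed the threshold without both mottled 1 and heavily mottled 1 (0.0661). Rora 1455165_at (0.70 ± 0.19, 0.0407) passed in 3 of 10 such fits, and was lost without yellow 1, slightly mottled 1, heavily mottled 1, pseudoagouti 1, slightly mottled 2, mottled 2 or heavily mottled 2. With the highest signal of each array in the fit, Hlf 1434735_at had a difference of 0.91 and a limma adjusted p of 0.00131 in liver. That signal overlapped between numbers in liver (34084 to 50092 for number 2, 39228 to 47341 for number 1), so this fit cannot show the part of array quality. The Gapdh ratio was not entered in this comparison, and the part of array quality in these differences was not tested.

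In kidney 2 members were called (7.33% of all were called, 3.86% as higher in number 2), Hlf 1434735_at with 0.76 ± 0.15 log2 (limma adjusted p = 0.0325) and Rora 1436326_at with 1.20 ± 0.27 (0.0351), both higher in number 2. Neither passed with yellow 1, slightly mottled 1, heavily mottled 1, pseudoagouti 1, yellow 2, slightly mottled 2 or pseudoagouti 2 left out, and without mottled 1 the count was 5. Fits that omit a mouse called 0 to 4312 of all probe sets in kidney (1650 in all mice). With the highest signal as a covariate, 0 of 22519 probe sets passed in kidney. In brain 0 members were called by limma, and 4 had an unadjusted p under 0.05 (1.97% of all were called). Without mottled 1 the brain count was 3, all of Rora and all lower in number 2. Over all probe sets the brain count ran from 1 to 2048 with a mouse left out (444 in all mice). The difference between numbers was called different between tissues for 0 of 16 members (limma's moderated F-test, 3 with an unadjusted p under 0.05, 4.94% of all called). Without mottled 1 it was called for 4, Tef 1450184_s_at and Rora 1424034_at, 1436325_at and 1455165_at. Of all probe sets, 325 to 1292 were called by this test with a mouse left out (1113 in all mice).

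**Figure D4:**
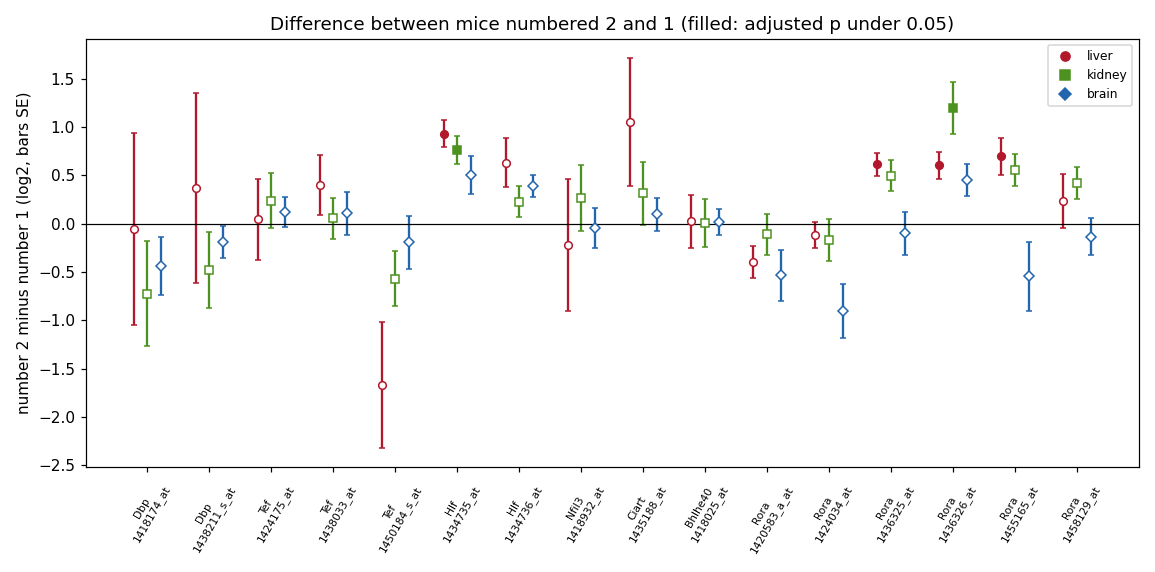
Difference in log2(signal + 16) of mice numbered 2 minus mice numbered 1 (points, with SE, n = 5 each) in liver, kidney and brain for the 16 member probe sets tested, filled where the limma adjusted p was under 0.05. Hlf 1434735_at lies above 0 in all 3 tissues, and the Rora probe sets lie on both sides of 0.

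Rora, the nuclear receptor that activates Arntl, was read by 9 probe sets whose deviations correlated to different extents. Deviations of 1420583_a_at and 1424034_at had r = 0.880 over 30 arrays, and those of 1436325_at and 1436326_at r = 0.668, but between 1424034_at and 1436326_at it was -0.08. With number means removed within tissue this last r was 0.316, and it was 0.665 in mice numbered 2 and 0.206 in mice numbered 1. Between 1424034_at and 1436325_at r was 0.380, and 0.691 with number means removed. In liver 1436326_at was higher in number 2 by 0.61 ± 0.14 log2 (limma adjusted p = 0.0188). There 1420583_a_at differed by -0.40 ± 0.16 and 1424034_at by -0.12 ± 0.13, with adjusted p of 0.143 and 0.636. The 3 probe sets below the tested level had r between -0.39 and 0.39 with the other probe sets of Rora over 30 arrays. The part of the transcript that each probe set reads was not used here.

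In brain, Rora 1424034_at was high in 4 mice, all numbered 1. It had 922.4 to 1424 in brains numbered 2. Among brains numbered 1, pseudoagouti 1 had 3215, slightly mottled 1 had 3118, yellow 1 had 2454, heavily mottled 1 had 2026 and mottled 1 had 920.1, the lowest of all 10 brains. The difference of -0.91 ± 0.28 log2 missed the threshold (limma adjusted p = 0.0964), and without mottled 1 it was -1.21 (0.00258). Rora is known to be abundant in cerebellar Purkinje cells and in thalamus. Markers of both regions had positive r with it, to different extents, as did general brain markers. The summed signal of 6 cerebellar markers was 6178 to 7832 in brains numbered 2. In number 1 it was 10490, 8155, 5760, 9836 and 48926, from yellow to pseudoagouti, and mottled 1 was again the lowest. Pcp2 and Gabra6, which mark Purkinje and granule cells, stood at 12110 and 8967 in pseudoagouti 1 and at most at 154 and 110.9 in the other 9 brains, while Zic1 was 2868 to 5184 in yellow 1, slightly mottled 1 and heavily mottled 1. Calb1, in the same sum, was 3271 in heavily mottled 1 and 4212 in slightly mottled 1, below the 4378 to 5191 of brains numbered 2. It was 5686 in yellow 1 and 13454 in pseudoagouti 1. The 4 thalamic markers summed to 1602 to 4794 in brains numbered 2 and to 6591, 7492, 1381, 8680 and 3814 in brains numbered 1. The 6 choroid plexus markers ranged from 1181 in mottled 1 to 33224 in yellow 1. The 5 general brain markers summed to 37515 to 51024 in number 2, and in number 1 to 73555, 79150, 43255, 46226 and 72664, from yellow to pseudoagouti. Over the 10 brains, deviations of the 5 general markers had r of 0.32 (Gfap) to 0.889 (Mbp, myelin) with Rora 1424034_at, with 0.831 for Snap25 (synapses). For the 6 cerebellar markers r was 0.44 (Calb1) to 0.879 (Zic1), with 0.561 for Pcp2. For the 4 thalamic markers it was 0.509 (Lef1) to 0.866 (Slc17a6, thalamic neurons). The part of the brain and region markers in the Rora difference was not tested.

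**Figure D5:**
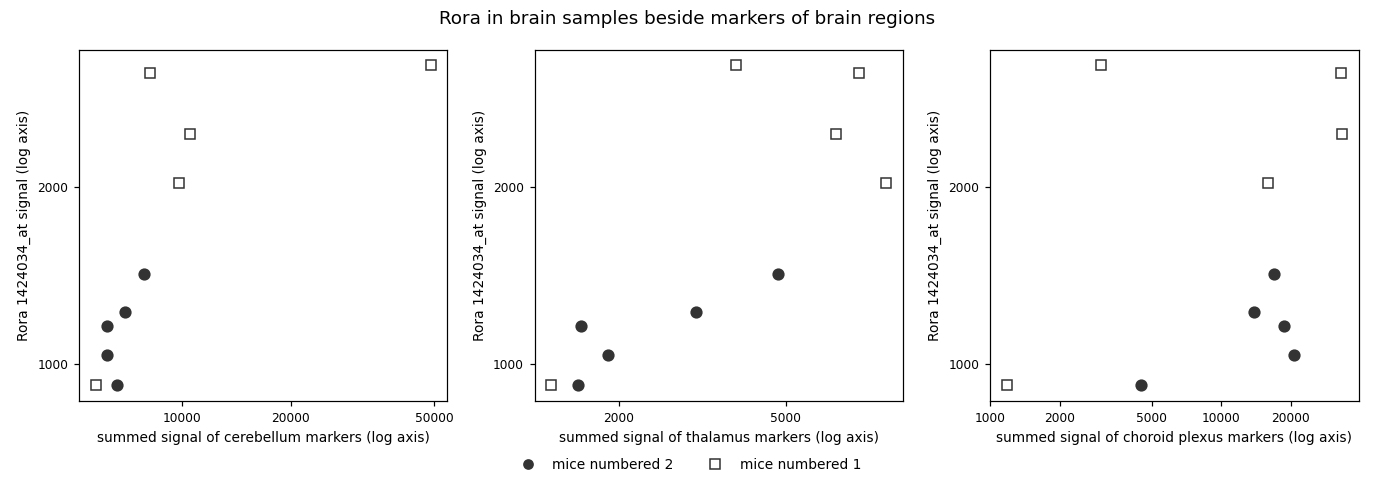
Rora 1424034_at signal (log axis) in the 10 brain samples against the summed signal (log axis) of markers for cerebellum, thalamus and choroid plexus, with mice numbered 2 as filled circles and mice numbered 1 as open squares. The 4 brains highest for Rora (2026 to 3215) are all numbered 1 and lie right of the brains numbered 2 for cerebellum, while mottled 1 (920.1) is lowest for all 3 marker sums.

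Levels by tissue were compared within mice (limma, mouse as a block, a log2 difference of at least 1), and the shares called were near or below those of all probe sets. Liver minus kidney was called for 4 of 16 members (28.5% of all): Nfil3 was higher in liver by 1.60 ± 0.30 log2, and Ciart (-1.35 ± 0.26), Tef 1450184_s_at (-2.03 ± 0.30) and Tef 1438033_at (-1.10 ± 0.19) were lower. Liver minus brain was called for 5 (50.6% of all), with Nfil3 (1.07 ± 0.30) and Rora 1436325_at (1.60 ± 0.13) higher in liver, and Hlf 1434736_at (-1.39 ± 0.11), Ciart (-1.77 ± 0.26) and Tef 1450184_s_at (-2.51 ± 0.30) lower. Kidney minus brain was called for 2 (42.6% of all), Rora 1455165_at (-1.47 ± 0.24) and 1458129_at (-1.28 ± 0.17), both lower in kidney. Nfil3 had a mean of 434 ± 386 in liver, 100 ± 62.6 in kidney and 139 ± 29.2 in brain (SD, n = 10 each). Its medians were 292 in liver, 77 in kidney and 139 in brain. Liver minus kidney was called for Nfil3 with any mouse left out (1.35 to 1.78 log2). Liver minus brain was under 1 without mottled 1 (0.85), heavily mottled 1 (0.92), slightly mottled 2 (0.95) or heavily mottled 2 (0.99), and so was not called there. Liver minus kidney for Tef 1438033_at also missed this limit without pseudoagouti 2 (-0.99). Without both mottled 1 and heavily mottled 1, a choice made after the data were seen, Nfil3 fell below the level tested. Dbp 1418174_at averaged 1483 ± 1244, 1744 ± 1083 and 1578 ± 660 in liver, kidney and brain, and no pair of tissues passed both limits.

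Coat colour, for which the mice had been collected, was tested as a slope per step over the 5 classes (0 for yellow to 4 for pseudoagouti). No member was called in liver, kidney, brain or the mean of the 3 tissues by limma, and 0 of the 16 had an unadjusted p under 0.05 in any of these fits (0%, 0.00444%, 0% and 0.00444% of all probe sets were called). Slopes of the mean ran from -0.01 to 0.07 log2 per step over the 16 members. For Dbp 1418174_at the slope was 0.03 ± 0.21 (SE, 10 mice). Both mottled mice were among the 4 low in Dbp, while slightly mottled and heavily mottled each had 1 low and 1 high mouse, and yellow and pseudoagouti had no low mouse. A slope over ordered steps does not test for a pattern in which middle classes differ from both ends.

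The genes most like Dbp, Tef, Nfil3 and Ciart included other clock genes, and those most like Bhlhe40, Bhlhe41 and Rora did not. Likeness was the Pearson r of deviations from the tissue mean over 30 arrays, which come from 10 mice. For Dbp 1438211_s_at it was highest with Nr1d2 (r = 0.909), Per3 (0.863) and Usp2 (0.835), a deubiquitinase with a daily rhythm, and lowest with Arntl (-0.879). In brain alone these were 0.483 with Nr1d2, -0.22 with Per3, 0.217 with Usp2 and -0.24 with Arntl, and in liver 0.952, 0.970, 0.870 and -0.95. For Ciart it was highest with Usp2 (0.880) and Hlf (0.853), and for Nfil3 with Arntl (0.755), while Dbp was its lowest. In liver r was 0.906 for Ciart with Usp2, 0.916 for Ciart with Hlf and 0.875 for Nfil3 with Arntl. In brain it was 0.245, 0.47 and 0.092, in the same order. For Hlf 1434736_at Myo18a (0.905) and Herc2 (0.860), which are not clock genes, stood above Ciart. For Rora 1424034_at the highest were Patj (0.825) and Inpp5b (0.820), with r of 0.911 and 0.931 in brain and -0.11 and 0.223 in liver. For Bhlhe40 the highest was Rnmt (0.657), and for Bhlhe41 1421099_at it was Tmem120b (0.695). Among the members, deviations of Dbp 1438211_s_at and Tef 1424175_at had r = 0.772 over 30 arrays, with 0.932 in liver and -0.277 in brain. Over the 18 arrays of the 6 mice outside the low 4 it was 0.279. With Dbp 1418174_at in place of 1438211_s_at, r was 0.849 over 30 arrays, with 0.974 in liver and 0.289 in brain. The sign in brain thus depended on the Dbp probe set. The r of Hlf 1434736_at and Ciart was 0.853, and 0.809 over those 18 arrays. Bhlhe40 had r of 0.07 with Dbp 1438211_s_at, and -0.07, 0.429 and 0.217 in liver, kidney and brain. Rora 1424034_at had r of 0.03 with it over all arrays, but -0.575 in liver, 0.493 in kidney and 0.558 in brain.

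Of the core clock, 6 of 13 genes tested passed the joint test of mice: Arntl, Npas2, Per1, Per2, Nr1d1 and Nr1d2. For this and the lists below, the share of all 22519 probe sets that passed was 6.8%. Arntl, the activator at E-boxes, was highest in mottled 1 and lowest in pseudoagouti 1, the reverse of Dbp 1438211_s_at, with a span of 1.86 log2 and a limma adjusted p of 0.00410. Npas2, its alternative partner, spanned 2.53 (0.0111) and was highest in mottled 2. Per1 spanned 2.61 (0.0133), Per2 1.83 (0.00761), and both were lowest in heavily mottled 1. Nr1d1, which encodes the repressor REV-ERB alpha, spanned 1.40 (0.0142) and was highest in heavily mottled 1, a mouse low for Dbp 1418174_at, and lowest in mottled 2. Nr1d2 spanned 1.27 (0.00891), and Clock (0.289), Per3 (0.212) and Cry1 (0.611) did not pass. Of reported targets of PAR bZIP factors or RORA, 1 of 8 passed, Cyp7b1 (0.0461), a hydroxylase of oxysterols. Cyp7b1 was highest in heavily mottled 1 and lowest in pseudoagouti 2, with r = -0.378 to Dbp 1438211_s_at over 30 arrays. Alas1, the rate-limiting enzyme of haem synthesis, did not pass (0.188), but its SD was 1.62 in liver, 0.38 in kidney and 0.16 in brain, and its spread was called larger in liver than in kidney and in brain. Of other rhythmic transcripts 2 of 7 passed, Tspan4 (0.0199) and Cdkn1a (0.0202). Of glucocorticoid-induced genes 4 of 7 passed, Fkbp5 (4.80e-05), Tsc22d3 (0.0343), Zbtb16 (0.00619) and Cebpd (0.00619). Fkbp5, which binds the glucocorticoid receptor complex, was highest in yellow 2 and lowest in mottled 2, and its deviations had r = 0.358 with those of Dbp 1438211_s_at over 30 arrays. The median F of these 4 lists was 2.22, 1.92, 3.01 and 4.45 in this order, where that of all probe sets was 1.47.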

How the data were processed

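The deposited values are intensities per probe set that the authors computed with MAS5, per the submitters' processing notes; its version is not given in the sources used here. Each array had a trimmed mean of 500 with 2% trimmed at each end, and no detection calls were used. Total RNA from frozen tissue was hybridised with 1 array per sample, and the number of arrays (10 per tissue, 5 per number) limits the precision. Values of all 30 arrays entered as log2(signal + 16) with no further scaling. The file holds 45101 probe sets, of which 64 are controls and were not used, and 22519 (12159 genes) were tested. The annotation gave 34945 probe sets 1 symbol, 932 several and 9160 none. All 8 members matched RefSeq by gene ID.

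Fits were run on all probe sets tested, with limma 3.58.1 in R 4.3.3 (eBayes with trend) and Benjamini-Hochberg adjusted p under 0.05. Deviations, counts and figures were made in Python 3.11.15 with pandas 2.3.3 and matplotlib 3.10.9. The tests were tried on simulated data. Members, gene lists and alternatives were chosen with earlier results of these data known. Named are all probe sets of the 8 genes, listed genes, and per member the genes with the 3 highest and 2 lowest r. A gene with several probe sets stands by the strongest. Nothing in the labels says that the 2 mice of a class came from different litters, so p-values cover these mice only. Those of the number comparisons within a tissue and of the coat slope measure the spread between the mice. In the other tests mouse and tissue are both in the fit, and p-values measure the spread left after them. Alternatives were offsets of 1 and 64, no filter, quantile normalisation across the 30 arrays or by tissue, the number as a term or block, array covariates, pairs of tissues, unordered classes, other centres of deviation, no mouse block and each mouse left out.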

Additional observations from a re-analysis of the deposited data

Results flagged for a closer look

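In 6 of 63 groups of 10 arrays, the lowest array stood apart from the next by more than Dixon's critical share of the range of the group, where chance alone flags about 1 group in 20 (3.15 groups here). Tef 1438033_at had a signal of 164 in the brain of slightly mottled 1, against 279.4 to 434.6 in the other brains. Ciart had 227.3 in the brain of heavily mottled 1, against 307.1 to 423 in the others, and this mouse also had the lowest Ciart signal in liver. The other 4 were probe sets below the level tested. Bhlhe41 1421099_at had 34.6 in the liver of heavily mottled 2 (others 81.9 to 187.7), 9.8 in the kidney of pseudoagouti 1 (others 45.2 to 125.5) and 20.9 in the brain of heavily mottled 1 (others 62.5 to 110.1). Rora 1441085_at had 76.3 in the brain of slightly mottled 2 (others 162.7 to 352.7).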

How the results depend on the processing

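Of 4353 values of single members under the alternatives, 4186 kept their side of the threshold, 116 were no longer called and 51 became called. No called value changed sign, but uncalled values could. Rora 1420583_a_at, at -0.06 log2 for liver minus brain, ran from -0.22 to 0.04 with a mouse left out. The joint test of mice called 5 members as reported, 3 to 8 with a mouse left out, 8 with an offset of 64, 3 with the highest signal and 2 with the Gapdh ratio as a covariate, 0 in liver and brain and 2 in kidney and brain. With the number removed within each tissue, and with the number as a replicate block over all tissues, it called 1. Liver minus kidney called 2 with an offset of 64 instead of 4. The number contrast in kidney called 1 without a filter, 0 with the highest signal as a covariate and 0 to 5 with a mouse left out, instead of 2. In brain it called 1 without a filter, 0 to 3 with a mouse left out and 5 without both mottled 1 and heavily mottled 1, instead of 0. The interaction called 1 without a filter, 0 to 4 with a mouse left out and 4 without both these mice, instead of 0. The test of spread between liver and kidney called 2 with an offset of 64, 2 with the number removed, 2 to 4 with a mouse left out, 2 without both mice and 0 from medians, instead of 4; liver minus brain called 2 from medians instead of 7, and kidney minus brain 1 without a filter. The replicate block that pairs mice by coat class called 5 in liver instead of 4 (Hlf 1434736_at was added, at a limma adjusted p of 0.0368), and as many as reported in kidney and brain. The labels do not say that a number marks a litter or day, and deviations of same-numbered mice correlated above 0.1 in 10 of 10 pairs in liver, 9 in kidney and 6 for brains. Over all probe sets, with a mouse left out, the joint test called 665 to 2064 (1531 in all mice), and the number contrast in liver called 1168 to 2205 (2218), that in kidney 0 to 4312 (1650) and that in brain 1 to 2048 (444); the joint test called 94 with the number removed and 41 with the block. The causes of these changes were not tested. Without mottled 1 and heavily mottled 1 Nfil3 was not tested.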
